A study of Mus musculus with 14 samples.

Results

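Bone morphogenetic proteins (BMPs) and growth differentiation factors (GDFs) are secreted dimers of the TGF-beta superfamily that bind paired serine/threonine kinase receptors and activate SMAD transcription factors. In the growth plate and the joint they drive condensation, cartilage formation and hypertrophy, and secreted antagonists bind them outside the cell and keep them from their receptors. The 10 genes described here are 7 ligand genes (Bmp2, Bmp3, Bmp4, Bmp6, Bmp7, Gdf5 and Gdf6) and 3 antagonist genes (Nog, Grem1 and Chrdl1), out of 21883 protein-coding genes examined. They were named as a family, and every peak overlapping the span of one of them extended by 5 kb on each side was collected. A gene counts as marked on a given day if each of that day's 2 libraries has such a peak. A gain means a change from peaks in neither library to peaks in both, and a loss the reverse.

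ATDC5 is a mouse line from teratocarcinoma AT805 (the labels count this name up by 1 from sample to sample, to AT818) that forms cartilage nodules in culture. All groups were of this 1 line, and the labels give no genetic change. Undifferentiated cultures were passaged in medium with serum, while cells for differentiation were spotted as dense droplets and given β-glycerophosphate and an ascorbate phosphate, and chromatin was fixed with formaldehyde on day 0, 3 or 10. The labels do not say whether day 0 cells had been spotted. Antibodies against H3K4me3, the trimethylated histone H3 lysine found at promoters in use or held ready, and against RUNX2, a runt-domain transcription factor of osteoblasts and maturing chondrocytes, gave 2 libraries per antibody and day. The labels do not tie the 2 libraries of a day to separate cultures, and their spread could be technical only.

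The lists differed in length in ways that touch the results. H3K4me3 lists held 13765 to 29022 peaks, and those of replicate 1 on days 0 and 10 were the shortest (13765 and 15219). RUNX2 lists held 19319 and 16859 peaks on day 3, but 97 to 108 on the other days. The RUNX2 lists of day 3 also resembled each other more than replicates of the other antibody did. Of the 19319 summits of replicate 1, 46.5% fell on the same base as a summit of replicate 2 and 69.7% within 3 bp of one, against 0.293% and 1.80% for H3K4me3 on that day. In the 2 RUNX2 lists, 328 peaks had the same start and end, and 110 of those also had the same fold enrichment. Whether the libraries share reads was not tested, and each RUNX2 result is given for each list. The defining genes of the chondrocyte lineage were marked: Sox9, Sox5, Sox6, Col2a1 and Runx2 had H3K4me3 in all 6 lists and Acan on days 3 and 10. Of 14 markers of other cell types, 3 were marked on day 0, 7 on day 3 and 4 on day 10. Tubb3 and Pparg had a peak in all 6 lists, Pou5f1, Nanog and Epcam in 5, and Myod1, Myog, Cdh5 and Adipoq were among those with none. In replicate 2 of day 0 only 93 bases of the Pou5f1 window were covered. The shortest peak of that list was 225 bp, so the peak reached beyond the window. Whether peaks at these markers lay nearest to other genes was not examined. Neurod1 and Ptprc gained one between days 0 and 3.

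The promoters of 3 of the 10 genes were in the RefSeq table of GRCm38.p6. The 250 bases before the annotated start are shown because the 3 starts differ in how the peaks lay on them, and CpG dinucleotides, which are dense in promoters that carry H3K4me3, are in capitals.
Grem1, chr2:113758649-113758898, minus strand: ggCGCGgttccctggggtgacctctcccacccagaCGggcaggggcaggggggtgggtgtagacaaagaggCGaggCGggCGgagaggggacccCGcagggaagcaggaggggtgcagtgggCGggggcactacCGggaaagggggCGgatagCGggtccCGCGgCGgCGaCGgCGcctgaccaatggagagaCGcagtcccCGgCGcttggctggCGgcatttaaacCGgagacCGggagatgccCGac
Bmp6, chr13:38345466-38345715, plus strand: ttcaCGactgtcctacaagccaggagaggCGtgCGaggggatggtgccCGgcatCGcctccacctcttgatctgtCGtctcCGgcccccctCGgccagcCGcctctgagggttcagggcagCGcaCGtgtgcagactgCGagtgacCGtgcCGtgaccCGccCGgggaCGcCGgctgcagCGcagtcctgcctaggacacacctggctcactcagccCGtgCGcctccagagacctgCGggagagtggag
Bmp4, chr14:46390670-46390919, minus strand: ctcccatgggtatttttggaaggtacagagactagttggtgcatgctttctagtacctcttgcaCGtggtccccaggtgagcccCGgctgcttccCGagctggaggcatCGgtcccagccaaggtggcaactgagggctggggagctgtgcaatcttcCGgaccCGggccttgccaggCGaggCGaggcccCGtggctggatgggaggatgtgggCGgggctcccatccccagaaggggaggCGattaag

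Each window of the promoter table also holds 50 bases after the start, 300 bases in all. Over this window Grem1 had 28 CpG dinucleotides, Bmp6 27 and Bmp4 12, where the median of all 32851 windows was 7. H3K4me3 peaks covered all 300 bases of the Grem1 window in 4 lists and 197 and 209 bases in replicate 1 of days 0 and 10. The whole Bmp6 window was covered in 5 lists and none of it in replicate 1 of day 0. No H3K4me3 list had a peak on the Bmp4 window. The RUNX binding motifs TGTGGT and TGCGGT, searched on both strands, were in none of the 3 windows, and 22.4% of all windows held at least 1 of them. The GC box GGGCGG, a binding motif of SP factors, matched 3 times at Grem1 and once each at Bmp6 and Bmp4, and 35.7% of all windows held it. The CCAAT box matched once, at Grem1, and 37.4% of all windows held it. RUNX2 peaks of day 3 covered 118 and 300 bases of the Grem1 window, 0 and 37 of the Bmp4 window and none of the Bmp6 window.

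The 10 genes fell into 3 sorts by H3K4me3. The 3 antagonist genes and Bmp4 had peaks in all 6 lists, Bmp2 and Bmp7 had none in any list, and Bmp3, Bmp6, Gdf5 and Gdf6 had peaks in some. On day 0, 4 of the 10 genes were marked (Bmp4, Nog, Grem1 and Chrdl1), where 54.8% of all protein-coding genes were. On day 3 it was 8 of 10, with Bmp3, Bmp6, Gdf5 and Gdf6 added, against 64.3% of all genes. On day 10 it was 5 of 10 (Bmp4, Bmp6, Nog, Grem1 and Chrdl1), against 59.4%. The day 10 count rests on replicate 1, and replicate 2 alone gave 8. The markers of other cell types moved with these counts, at 3, 7 and 4 of 14. Their summed covered bases in replicates 1 and 2 were 1409 and 3381 on day 0, were 10315 and 6271 on day 3, and were 1985 and 8674 on day 10. Their part in the family's change was not tested. With windows of 1 kb at the gene ends only, Bmp4 was no longer marked on days 3 and 10, which left 7 and 4 genes. Of all genes, 54.5% had a peak in all 6 lists and 28.6% in none, beside 4 and 2 of these 10.

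**Figure D1:**
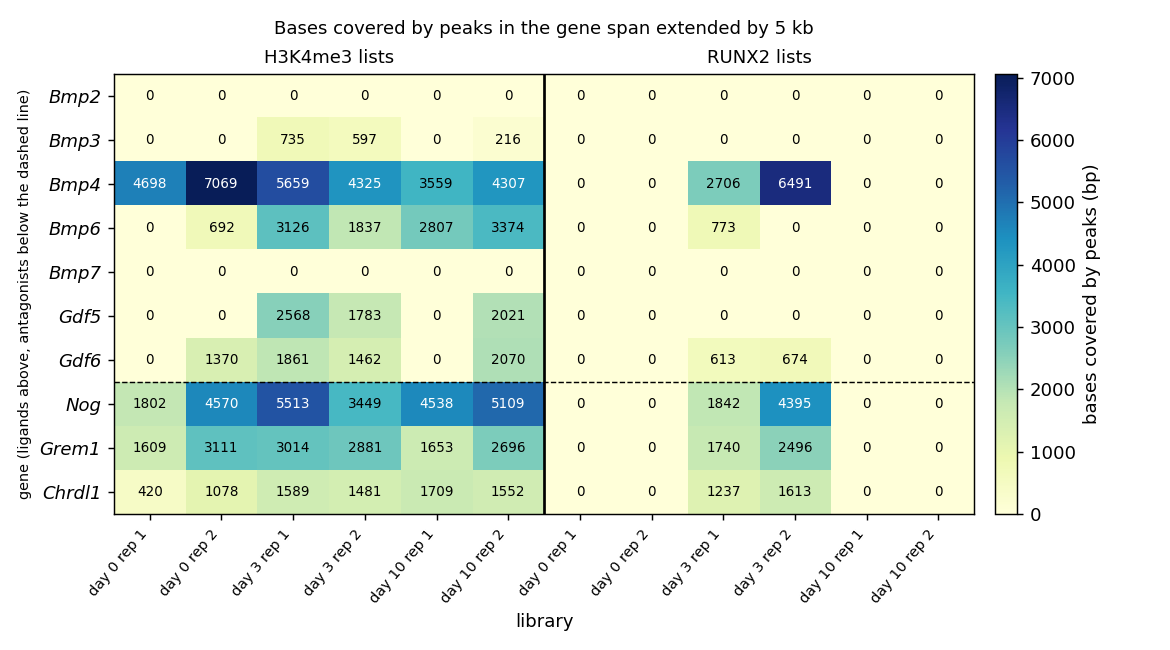
Bases covered by peaks (colour and number, bp) in the extended span of each gene (rows, ligands above the dashed line and antagonists below) in each library (columns, H3K4me3 left and RUNX2 right of the line). Bmp2 and Bmp7 are at 0 throughout, the 3 antagonists and Bmp4 have H3K4me3 in all 6 lists, and RUNX2 columns are filled on day 3 only.

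**Figure D2:**
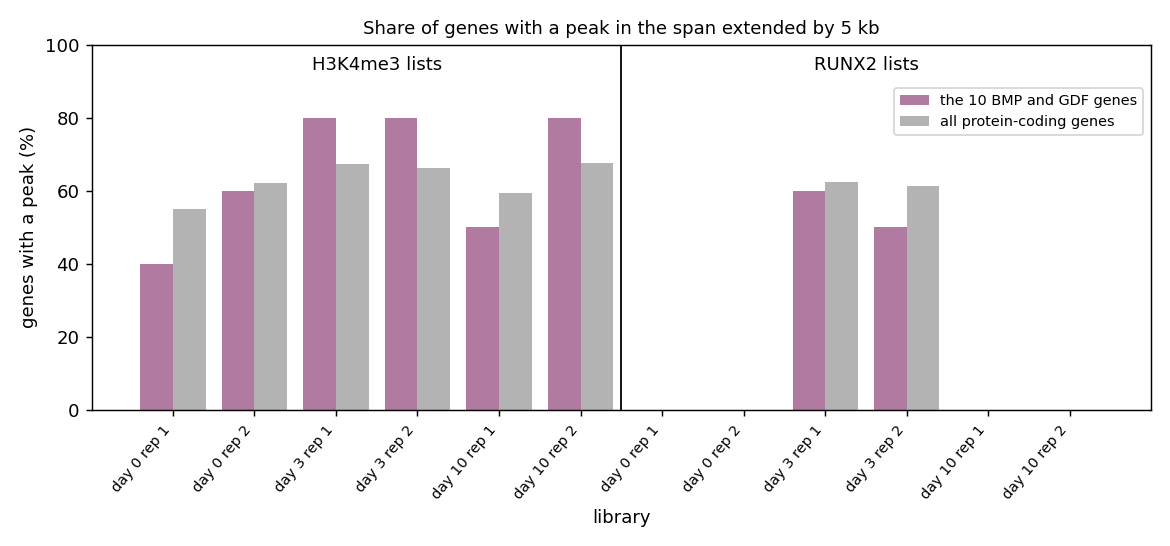
Share of genes with a peak in the extended span (%, bars) in each of the 12 libraries, for the 10 BMP and GDF genes and for all 21883 protein-coding genes. For H3K4me3 the family stands at 4 and 6 of 10 on day 0 against 55.0 and 62.2% of all genes, at 8 of 10 in both day 3 libraries against 67.2 and 66.2%, and at 5 and 8 of 10 on day 10 against 59.5 and 67.5%.

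Among the ligands, Bmp4, which acts in early mesoderm, limb and cartilage, had the widest mark. Covered bases were 4698 and 7069 on day 0, 5659 and 4325 on day 3 and 3559 and 4307 at day 10 in replicates 1 and 2. The means were 5884 ± 1677 (SD, n = 2), 4992 ± 943 and 3933 ± 529 bp. Both day 10 libraries lay below both day 0 libraries and both day 3 libraries, while days 0 and 3 overlapped. Fewer covered bases in both day 10 than in both day 0 libraries were found for 0.206% of all genes (45 genes), and for Bmp4 alone among the 10. Between days 3 and 10 this held for 13.6% of all genes, and for Bmp4, Grem1 and Bmp3. That count of 3 became 5 without replicate 2 of day 3 or replicate 2 of day 10, against 50.5 and 61.8% of all genes. None of the 10 had fewer in both day 3 than in both day 0 libraries (0.0503% of all genes) or more in both day 10 than in both day 3 libraries (0.306%). Under other settings Bmp4 met the former rule (windows at the gene ends, 0.0777% of all genes), and the latter was met by Nog (spans with no extension, 0.544%) and by Chrdl1 (equal numbers of top peaks, 0.503%). The call for Bmp4 from day 0 to day 10 also held when lists were cut to equal numbers of their strongest peaks, and it ended with a −log10 q of at least 5. It held without any 1 of the 4 libraries, but without replicate 2 of day 10 as many as 16.6% of all genes met the rule.

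At Bmp4 nearly all of the mark lay inside the gene. Its span is chr14:46383525-46390669, on the minus strand, with the lncRNA gene Gm15222 within it (chr14:46387478-46389282) and the end of the lncRNA gene Gm15217 overlapping its lower end by 84 bp. In replicate 2 of day 0 1 peak of 6672 bp covered chr14:46383927-46390598 (fold enrichment 9.35), beside a peak of 397 bp just outside the lower end. In replicate 1 of that day 4 peaks lay between 46384060 and 46390433, the strongest at chr14:46385160-46386455 (10.8). By day 10 the outermost covered bases were 46385515 and 46389282 in replicate 1 and 46385272 and 46389870 in replicate 2. The strongest summit of each list stood 3520 to 4735 bp inside the upper end of the span, where the promoter table places the start. In its own list, the strongest Bmp4 peak of day 0 ranked above 99.5% of peaks in replicate 1 and 89.6% in replicate 2.

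Bmp6, a ligand gene active in hypertrophic cartilage and in liver iron control, had no peak in replicate 1 of day 0 and 692 covered bases in replicate 2. It had 3126 and 1837 on day 3 and 2807 and 3374 at day 10. All 4 later libraries lay above both day 0 libraries. Days 3 and 10 overlapped. More covered bases in both day 3 than in both day 0 libraries were found for 52.6% of all genes, and in day 10 against day 0 for 14.4%. Of the 10 genes, Bmp3, Gdf5, Gdf6 and Chrdl1 met the first rule as well, which makes 5. With equal numbers of top peaks Bmp6 was the only one of the 10 to meet it, against 44.3% of all genes, and it had then gained its peak between days 0 and 3, as had 1.1% of all genes. The main peak lay at the lower end of the span (chr13:38345716-38500314, plus strand). It covered chr13:38344854-38347555 in replicate 1 of day 3 (fold enrichment 15.7) and chr13:38345060-38346643 in replicate 2 (10.2). A second site inside the gene, 64642 to 64786 bp from the start, had an H3K4me3 peak in both day 3 libraries and in replicate 2 of day 10. In replicate 1 of day 3 that peak covered chr13:38410305-38410728 (fold enrichment 6.95).

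Gdf5, the joint-forming ligand gene whose loss gives brachypodism in mice, and Bmp3, a BMP that opposes osteogenic BMPs, gained H3K4me3 between days 0 and 3. These were 2 of the 10 genes, where 3.23% of all genes gained a peak, and none of the 10 lost one (0.00914% of all genes). Gdf5 had 0 covered bases in both day 0 libraries, 2568 and 1783 on day 3, and 0 and 2021 on day 10. Its peak covered chr2:155943590-155945903 in replicate 1 of day 3 (fold enrichment 10.9) and was split in replicate 2 into 3 peaks with fold enrichments of 5.43 to 5.95, between 155943890 and 155945967. These peaks lay over the upper part of the span (chr2:155941023-155945367) and just past its upper end. A weak peak of 254 bp in replicate 1 (3.94) had its summit 4586 bp past that end. Replicate 1 of day 10 had no Gdf5 peak, while replicate 2 had one from 155943901 to 155945921 (6.28).

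At Bmp3 the peaks were small. It had 735 and 597 covered bases on day 3, 0 in both day 0 libraries and 0 and 216 on day 10. The peaks near the lower end of the span (chr5:98854415-98884053) covered chr5:98854662-98855142 in replicate 1 of day 3 and chr5:98854742-98854962 and chr5:98855080-98855455 in replicate 2, with fold enrichments of 5.00, 5.29 and 6.70. Replicate 1 had another of 254 bp farther inside the gene (4.71). The single day 10 peak, chr5:98856154-98856369 in replicate 2, overlapped none of them (fold enrichment 3.95). A lncRNA gene, Gm34563, overlaps the lower end of Bmp3 by 93 bp and ends at 98854507, below all of these peaks. With only the windows at the gene ends, or with a −log10 q of at least 5, Bmp3 was called as losing its peak between days 3 and 10.

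The gains of Gdf5 and Bmp3 were not kept under every setting. With equal numbers of top peaks in each list neither gene was called, and with windows extended by 10 kb the Gdf5 call ended, as the window then reached a peak of replicate 2 of day 0 at 9661 bp, nearest to Uqcc1. In the list of replicate 1 of day 3, 50.9% of all peaks had a lower −log10 q than the strongest Gdf5 peak and 27.6% a lower one than that of Bmp3.

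Gdf6, a relative of Gdf5 with roles in joints and skull sutures, had no peak in replicate 1 of day 0 or of day 10, the 2 shortest lists. It had 1370 covered bases in replicate 2 of day 0, 1861 and 1462 on day 3 and 2070 in replicate 2 of day 10. Both day 3 libraries lay above both day 0 libraries, while day 10 lay on both sides of day 3. The call of more covered bases on day 3 than on day 0 ended for Gdf6 under 3 other settings. These were a −log10 q of at least 5, windows at the gene ends and equal numbers of top peaks. The main peak covered the lower end of the span (chr4:9844372-9862345), from 9843984 to 9845382 in replicate 1 of day 3, with a fold enrichment of 9.50. Without replicate 2 of day 0, both Gdf6 and Bmp6 joined Bmp3 and Gdf5 as gained, making 4 of 10 against 9.4% of all genes.

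Bmp2 and Bmp7, which encode strongly bone- and cartilage-inducing ligands, had no peak of either antibody in any of the 12 lists. Around Bmp2 (chr2:133552159-133562896) the nearest H3K4me3 peak of any list was 19314 bp away, in replicate 2 of day 0 (chr2:133582210-133582434, fold enrichment 4.99). In the other 5 lists it was 249287 to 704461 bp away. Around Bmp7 (chr2:172868012-172940321) the nearest H3K4me3 peak was 59283 to 59442 bp away in all 6 lists, with Rae1 as the nearest gene. No peak was called at the depth of these libraries, which does not show that the mark is absent.

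The antagonist genes were marked throughout. Nog encodes noggin, which binds BMPs and blocks both of their receptor-binding faces. It had 1802 and 4570 covered bases on day 0, 5513 and 3449 on day 3 and 4538 and 5109 at day 10, so that all 3 days overlapped, although within each replicate number day 10 lay above day 0. The means were 3186 ± 1957, 4481 ± 1459 and 4824 ± 404 bp (SD, n = 2). The gene is short (chr11:89300638-89302559, 1922 bp). Its H3K4me3 reached beyond both ends, with 2 or 3 peaks in each list from 89297937 at the lowest to 89303763 at the highest base. The strongest peaks had fold enrichments of 23.3 in replicate 1 of day 3 and 15.8 in replicate 2 of day 10.

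Grem1 encodes gremlin, a cystine-knot antagonist of the DAN family. It carried a single H3K4me3 peak in each list, over the start shown above. Its widths on day 0 were 1609 and 3111 bp, those on day 3 were 3014 and 2881, and those on day 10 were 1653 and 2696. Both libraries of day 3 lay above both libraries of day 10, and days 0 and 3 overlapped. In replicate 1 of day 3 the peak covered chr2:113756108-113759121 with a fold enrichment of 22.3. The span is chr2:113748675-113758648.

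Chrdl1 encodes a chordin-like protein that binds BMPs. It had 420 and 1078 covered bases on day 0, 1589 and 1481 on day 3 and 1709 and 1552 at day 10. All 4 later libraries lay above both day 0 libraries, as for Bmp6. With spans extended by 5 kb, only these 2 of the 10 genes had more covered bases in both day 10 than in both day 0 libraries. Without replicate 2 of day 0 there were 4 such genes, against 40.7% of all genes, and without replicate 1 of day 10 there were 6, against 62.7%. With equal numbers of top peaks there was 1 (Chrdl1). Nog joined Bmp6 and Chrdl1 with spans of no extension (12.8% of all genes) and with windows at the gene ends (16.5%). It also joined them with a −log10 q of at least 5 (16.0%). The main peak lay at the upper end of the long span (chrX:143285674-143394263), with summits 12 to 248 bp inside it. On day 0 its fold enrichment was 3.24 in replicate 1 (chrX:143394083-143394502) and 9.79 in replicate 2 (chrX:143393519-143394596). The peak of replicate 1 ranked above only 2.44% of that list and fell out with a −log10 q of at least 5.

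**Figure D3:**
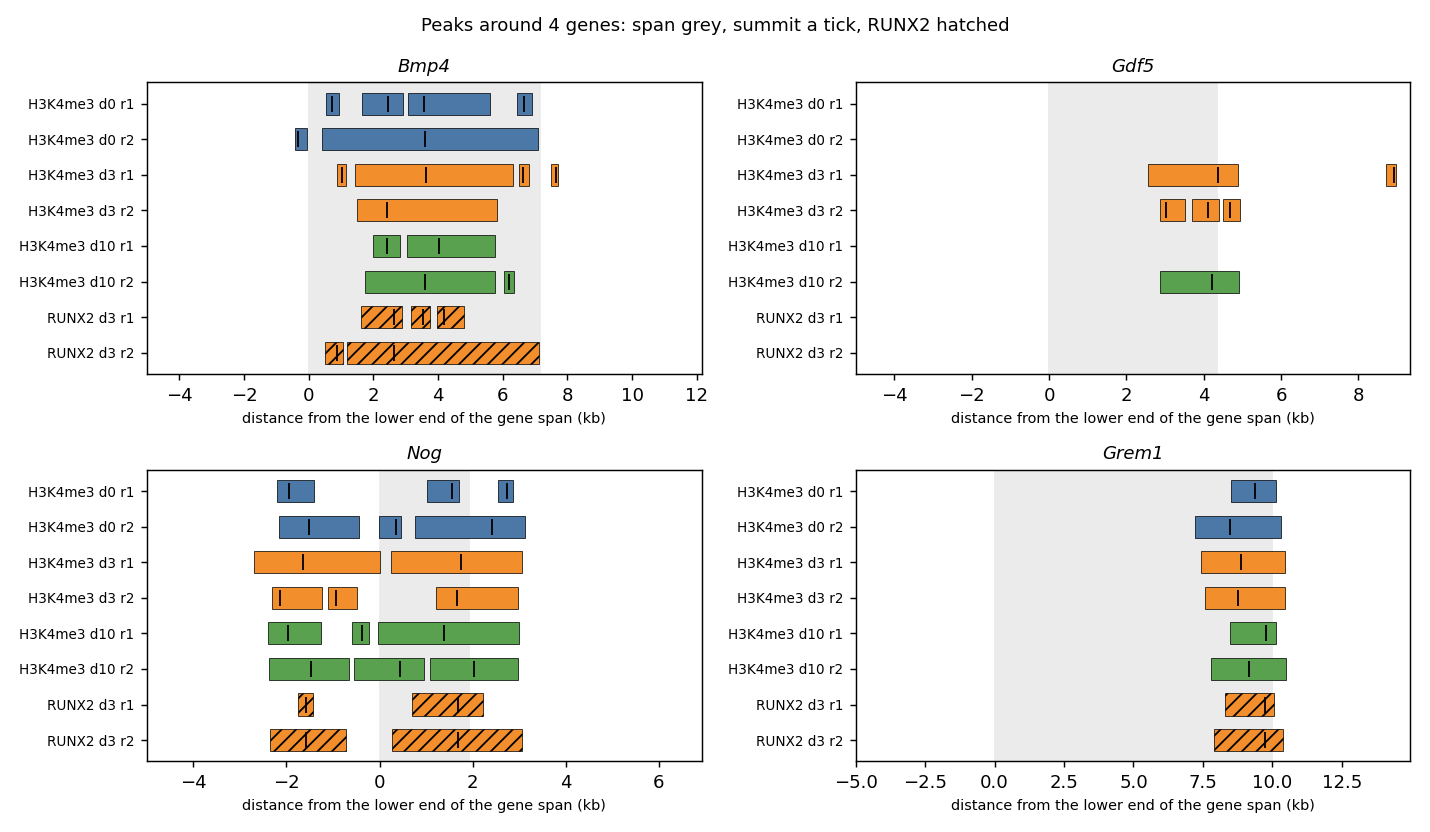
Peaks (bars, width in kb) of the H3K4me3 lists and of the day 3 RUNX2 lists (hatched) around Bmp4, Gdf5, Nog and Grem1, by distance from the lower end of the gene span (kb), with the span in grey and each summit as a tick. Colours give the day (blue 0, orange 3, green 10). At Bmp4 the H3K4me3 bars of day 10 reach less far than those of day 0, at Gdf5 there is no bar on day 0, and at Grem1 both RUNX2 summits stand at the same place.

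**Figure D4:**
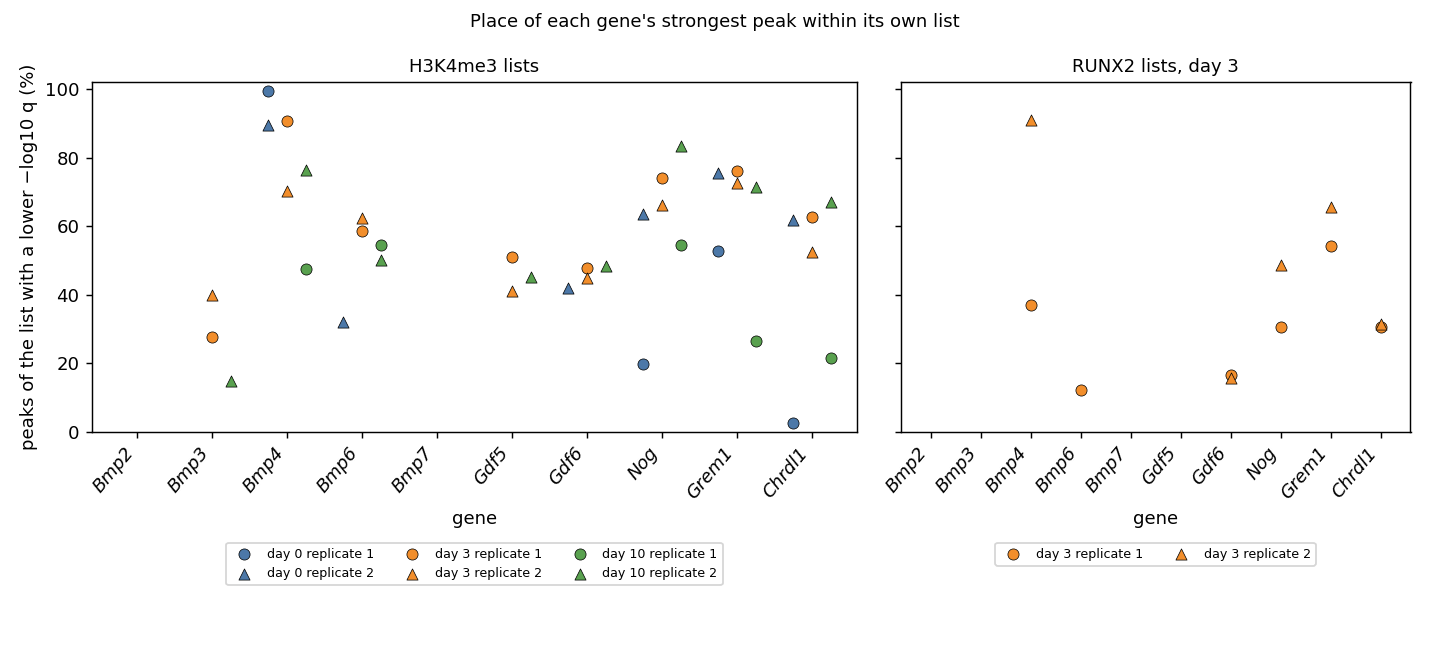
Share of the peaks of a list that had a lower −log10 q than the gene's strongest peak in that list (%, vertical axis), by gene, for the H3K4me3 lists (left) and the day 3 RUNX2 lists (right), with 1 point per library (circle for replicate 1, triangle for replicate 2, colour for day). Bmp4 stands highest in both day 0 H3K4me3 lists (99.5 and 89.6%), and Bmp3 stands lowest in both day 3 H3K4me3 lists (27.6 and 40.0%).

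The order of the genes by covered bases was similar in the lists. Bmp4 was first and Nog second in all 4 H3K4me3 lists of days 0 and 3, and Nog first and Bmp4 second in both lists of day 10. Bmp3 came last among the marked genes in the 3 lists where it had a peak. Among all genes with a peak, the covered bases of Bmp4 exceeded those of 90.8 to 99.4% in the 6 H3K4me3 lists, those of Nog 68.6 to 98.7% and those of Chrdl1 3.27 to 61.5%. Windows differ in length, from 11922 bp at Nog to 164599 bp at Bmp6, so these levels are not per length.

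RUNX2 peaks were found at the family on day 3 only. Bmp4, Gdf6, Nog, Grem1 and Chrdl1 had one in both day 3 libraries, 5 of 10 genes, where 61.1% of all protein-coding genes did. They also had none on days 0 and 10, when 0.0274 and 0.0183% of genes had a peak in both libraries. All 5 were thus gained from day 0 to day 3 and lost from day 3 to day 10, as were 61.0% of all genes in each case. None had fewer bases under RUNX2 on day 10 than on day 0 (0.0228% of all genes). Replicate 2 alone gave the same 5 genes and replicate 1 alone added Bmp6. With windows at the gene ends only, Bmp4 was not called, which left 4 genes against 52.9% of all genes. The lists of days 0 and 10 hold too few peaks to compare RUNX2 at a gene between days.

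RUNX2 peaks lay on H3K4me3. All 17 RUNX2 peaks at the family overlapped an H3K4me3 peak of day 3, and 16 overlapped peaks of both H3K4me3 libraries. Of all RUNX2 peaks of day 3, 96.2% in replicate 1 and 98.9% in replicate 2 overlapped a peak of at least 1 H3K4me3 library. For both H3K4me3 libraries it was 92.2 and 96.9%. Grem1 had RUNX2 peaks of 1740 bp (chr2:113756977-113758716, fold enrichment 5.98) and 2496 bp (chr2:113756579-113759074, 14.6), with both summits on base 113758426, which is 222 bp downstream of the start shown above. At Bmp4 replicate 2 had a peak of 5936 bp (chr14:46384721-46390656, fold enrichment 15.8), beside a smaller one of 555 bp, while replicate 1 had 3 narrower peaks of 583 to 1270 bp with fold enrichments of 1.82 to 3.01. The strongest summits of the 2 libraries were 3 bp apart. At Nog both libraries had a peak with its summit below the gene (fold enrichments 2.63 and 6.69). Both also had one over its upper end (3.82 and 12.7), with summits 233 and 230 bp inside the span. At Chrdl1 both summits were on base 143393763 (fold enrichments 5.49 and 9.78), and at Gdf6 both on base 9844274, which is 98 bp outside the lower end (4.75 and 5.98).

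Bmp3, Bmp6 and Gdf5 had H3K4me3 in both day 3 libraries without RUNX2 in both. Of the 14071 genes with H3K4me3 in both day 3 libraries, 94.4% had RUNX2 in both, 5.6% did not and 4.17% had it in neither, while 3 of the 8 marked family genes did not and 2 had it in neither (Bmp3 and Gdf5). This comparison was made after the values were seen and has no test. Among genes with H3K4me3 in all 6 lists, 11928 of 11931 had RUNX2 in both day 3 lists, including the 4 of this family. Bmp6 had RUNX2 in replicate 1 only, 342 bp next to the start (chr13:38345115-38345456, fold enrichment 3.68) and 431 bp at the site inside the gene (chr13:38410361-38410791, 4.68). In replicate 1 of day 3 the strongest H3K4me3 −log10 q was 5.75 at Bmp3, 19.6 at Gdf5 and 33.5 at Bmp6. Of the 5 genes with RUNX2 in both lists, Gdf6 stood at 15.8 and the other 4 at 40.9 to 81.6. In replicate 2 the values were 8.57 at Bmp3, 9.05 at Gdf5 and 22.4 at Bmp6, against 11.3 at Gdf6 and 16.3 to 27.4 at the other 4. Genes without RUNX2 in both lists thus mostly had the weaker H3K4me3, with Bmp6 overlapping in both replicates and Gdf5 in replicate 1. The part of H3K4me3 strength in the absence of a RUNX2 peak was not tested. The nearest RUNX2 peak to Gdf5 was 9758 bp away, in replicate 2 of day 3, and nearest to Uqcc1 (chr2:155929319-155931265). With windows of 10 kb Gdf5 therefore counted as having RUNX2, and Bmp3 and Bmp6 were left.

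Of 54 other genes of the pathway in 5 lists, 36 had H3K4me3 in both libraries on day 0 (66.7%, against 54.8% of all genes). The number was 41 on day 3 (75.9% against 64.3%) and 37 on day 10 (68.5% against 59.4%). All 10 SMAD and ID genes, which carry and answer the signal, had it in all 6 lists. They also had RUNX2 in both day 3 lists, as did 61.1% of all genes. Among genes with H3K4me3 in all 6 lists, 11928 of 11931 did. Of 12 receptors and co-receptors 8 had H3K4me3 in all 6 lists, while Hjv, the co-receptor of hepcidin control, had none. Of 14 other ligands 6 had it in all 6 lists and 7 had none (28.6% of all genes): Bmp5, Bmp8b, Bmp10, Bmp15, Gdf2, Gdf10 and Mstn. Of 15 other antagonists and modulators 10 had it in all 6 lists, while Sostdc1 and Cer1 had it in none. Counting the family and these lists together, 13 of 18 antagonists and modulators and 7 of 21 ligands had a peak in all 6 lists, as did 54.5% of all genes. No test of this difference was made. These counts take any peak within 5 kb of a span, and such a peak can lie nearer to a neighbouring gene. Apart from Bmp8a, Chrdl2 and Tll2, the nearest gene was not examined for the 54 genes. Of all genes, 64.3% were marked on day 3, but 54.6% when the summit had to lie in the window and nearest to the gene.

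From day 0 to day 3, 2 of the 54 genes gained H3K4me3 (3.7%) and none lost it, against 3.23% of all genes. They were Chrdl2, a close relative of Chrdl1, and Tll2, a tolloid-like protease gene of the family that cleaves chordin. Chrdl2 had 0 covered bases in both day 0 libraries, 1697 and 1224 on day 3 and 362 and 1931 at day 10, so that it also counted as gained from day 0 to day 10 (1.11% of all genes), as none of the 10 family genes did. Its peak covered chr7:100005495-100006692 in replicate 1 of day 3, with a fold enrichment of 12.8. Both day 3 RUNX2 lists had a peak at chr7:100005719-100006494 with the same fold enrichment of 5.71, so these may not be 2 separate observations. At Tll2 the peaks of the 2 day 3 libraries did not overlap each other, and the highest fold enrichment was 5.47. No gene of the family or of the lists gained or lost H3K4me3 between days 3 and 10, where 0.0457% and 0.576% of all genes did. Without replicate 2 of day 10, Bmp3, Gdf5 and Gdf6 counted as lost, against 5.14% of all genes, and without replicate 1 of day 10, Bmp3 and Gdf5 counted as gained from day 0 to day 10, against 5.97%.

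The presence of peaks over the 12 lists gave 3 uncommon patterns. Bmp3 and Gdf5 had the same pattern, which 1.05% of all genes had. It was shared with Tll2 among the listed pathway genes and with Neurod1 among the markers of other cell types. The pattern of Gdf6 was that of Eng, which encodes the co-receptor endoglin, and of 1.21% of all genes. The pattern of Bmp6 was held by 14 genes in all (0.064%), none of them in the lists. Likeness here means identical presence or absence over 12 lists from 1 cell line, with no weight on the size of a peak.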

How the data were processed

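Chromatin of ATDC5 cells was precipitated with an antibody against H3K4me3 or RUNX2 on each of 3 days, in 2 libraries each; peak lists were used for 12 of 14 samples, and the 2 inputs were not analysed here. The submitters' processing notes name MACS2, HISAT2 2.2.0, Trim Galore and FastQC, without settings. The deposited lists give, per the narrowPeak column order, each peak's score, its fold enrichment (a ratio to the caller's background at the summit), and the −log10 of the p-value and q-value, each for 1 library. The authors' fold, score and −log10 q serve here to describe peaks and to rank or filter them inside 1 list, and read depth is not given in the sources used here. The notes name GRCm39, but 37.9 to 70.1% of H3K4me3 summits were at most 1 kb from an end of a RefSeq GRCm38.p6 gene, against 6.12 to 7.98% after a shift of 20 kb, so positions were read as GRCm38.

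Peaks on assembled chromosomes were joined to the span of each of 21883 protein-coding genes extended by 5 kb (Python 3.11.15, numpy 2.4.6, pandas 2.3.3), after the overlap code had been tested on simulated peaks. Listed positions count from 1. The gene table gives spans without strand, exons or transcript starts. An exact permutation test of 2 against 2 libraries cannot go below 0.333, so no p-value is given. Members and gene lists were chosen with earlier results of these data known. All 10 members are named. Other pathway genes were named where they gained or lost H3K4me3, had none in any list, or shared a member's pattern held by under 10% of genes. Values of 2 listed genes are not reported here. Alternatives changed the window, the overlap rule, the q limit, the list length and the libraries.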

Additional observations from a re-analysis of the deposited data

How the results depend on the processing

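Of 197 recomputed counts of family genes, 179 stayed within 1.5 times the count given, and of 140 recomputed numbers of lists per gene, 128 were equal. The 179 include counts of 0 that stayed 0, such as RUNX2 on days 0 and 10, whose lists held 97 to 108 peaks. They also include counts whose genes changed. Without replicate 1 of day 0, Bmp6 and Gdf6 joined the genes marked on day 0, making 6. With equal numbers of top peaks, 1 gene gained H3K4me3 from day 0 to day 3 (Bmp6 in place of Bmp3 and Gdf5), 1 had more covered bases on day 3 than on day 0 (Bmp6), and 1 had more on day 10 than on day 0 (Chrdl1). With spans extended by 10 kb, 1 gene gained H3K4me3 from day 0 to day 3 (Bmp3). With windows at the gene ends, 1 gene lost H3K4me3 from day 3 to day 10 and 1 had fewer covered bases (both Bmp3), while Bmp4 lost its H3K4me3 call on days 3 and 10 and its RUNX2 call on day 3. With a −log10 q of at least 5, 1 gene lost H3K4me3 from day 3 to day 10 (Bmp3) and 0 had fewer covered bases on day 10 than on day 0. The cause of these shifts was not tested beyond the construction of each setting.

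Leaving out 1 library at a time gave 5 to 8 genes marked on day 10, 2 to 4 gained from day 0 to day 3, 0 to 3 lost from day 3 to day 10 and 0 to 2 gained from day 0 to day 10. It gave 3 to 5 genes with fewer covered bases from day 3 to day 10, 2 to 6 with more from day 0 to day 10 and 1 to 2 with fewer. The highest values came without replicate 2 of day 0 (4 gained), replicate 1 of day 10 (8 marked, 2 gained, 6 with more), replicate 2 of day 10 (3 lost, 5 with fewer), replicate 2 of day 3 (5 with fewer) and replicate 1 of day 0 (2 with fewer covered bases on day 10 than on day 0). No paired analysis was possible because the calls come from no test. The alternatives for the narrowing at Bmp4 and for H3K4me3 without RUNX2 were chosen after seeing the data. Read depth is unknown, so a gene without a peak cannot be told from one below the caller's limit.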

Other observations

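Bmp8a, a ligand gene outside the family described above, was picked out after its values were seen. Its H3K4me3 covered 421 and 463 bases on day 0. On day 3 this was 1275 and 1292, and on day 10 it was 2380 and 3150, so that the libraries of the 3 days did not overlap. More covered bases in both day 10 than in both day 3 libraries were found for 0.306% of all genes (67 genes), and Bmp8a was 1 of them. Its calls under other settings are not given here. The share of all genes was 0.274% with a −log10 q of at least 5. It was 1.01% when the summit had to lie in the window and nearest to the gene. The peak grew from chr4:123342724-123343144 in replicate 1 of day 0 to chr4:123341399-123343410 in replicate 1 of day 10, with a further peak of 368 bp beside it, and its nearest protein-coding gene was Bmp8a in every list.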
